A study of Arabidopsis thaliana with 12 samples.

Results

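Extensins are rod-like structural glycoproteins of the plant cell wall, and 10 extensin genes were followed here in Arabidopsis roots after induction of a Dof transcription factor. They are the measured members of a list of 35 loci that also held root hair genes, out of 16548 genes tested. A locus counted as measured where the probe annotation names it alone, and the entry with the highest mean signal stood for it. Of the listed loci, 10 of 15 extensins met this rule: AT1G23720, AT1G26240, AT1G26250, AT2G43150, AT3G28550, AT3G54580, AT3G54590 (HRGP1), AT4G08400, AT4G08410 and AT5G06630. None of the 6 hair regulators and growth factors (RHD6, RSL4, RSL2, RHD2, IRE and COBL9) met it. Nor did any of the 10 genes listed as root-hair-specific (RSH2, RSH3, RSH4, PERK13, RHS12, RHS13, RHS14, G3Pp2, RHS16 and RHS17). The 4 proline-rich or LRX genes (PRP1, PRP3, LRX1 and MOP10) and 5 extensins (EXT4, EXT6, EXT10, EXT12 and EXT13) were likewise not analysed here. The account therefore concerns extensins, and says nothing of the core hair genes on the list.

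Extensin chains carry runs of proline that are hydroxylated and then decorated with short arabinose chains. Once secreted, the proteins are joined to each other through tyrosine by class III peroxidases, which stiffens the wall. In Arabidopsis roots several extensin genes are transcribed in growing root hairs, tubular outgrowths of epidermal cells that extend at the tip, and mutants in some of them form abnormal hairs.

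Levels came from 12 one-colour arrays of RNA from entire roots. One line carried ER8Dof1.1 in the background labelled S32/Col, and the others carried ER8Dof2.2 or ER8PEAR2 in the SUC2p::GFP-GUS background. Their roots are called Dof1.1, Dof2.2 and PEAR2 roots here. ER8 is a vector that switches its gene on when an estrogen is given. Plants 68 h old, grown in continuous light, spent 16 h on plates with 10 µM estriol (an estrogen) or on mock plates, which gave a pair of biological replicates in each of 6 groups, per the titles. Every plant thus carried a Dof transgene, and no estriol-treated line without one was analysed here, so an effect of estriol itself cannot be told apart from that of the transgene. How many independent transformants stand behind a line is not given in the sources used here, and the line with ER8Dof1.1 also differs from the others in background.

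Values are the log2 signals the authors deposited. Replicate arrays correlated at 0.988 to 0.995 over all 28583 entries. The median signal of an array was 5.94 to 6.16 for Dof1.1 roots, 5.41 to 5.58 for Dof2.2 roots and 6.48 to 6.57 for PEAR2 roots, so levels are compared within a line. A group mean under the lower quartile of all entries in that group (2.95 to 4.05) is called dim, since it is not shown to lie above background. Changes are estriol minus mock on the log2 scale with the SE of a limma model over all groups, from 2 arrays per group. Adjusted p-values are limma's with Benjamini-Hochberg adjustment across the genes tested, and 0.05 is the threshold. EXPA7 and EXPA18, expansin genes known for their expression in root hairs, had mock means of 9.17 to 11.05, above the dim range.

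Most of the extensin transcripts were lower with estriol in every line. Of the 10 genes, 9 fell and 0 rose in the Dof1.1 induction, where the test called 34% of all genes, 16.2% lower and 17.8% higher. In the Dof2.2 induction 8 fell and 0 rose, where 28.4% of all genes were called, 13.6% lower and 14.8% higher. In the PEAR2 induction 8 fell and 0 rose, where 18.8% of all genes were called, 10.4% lower and 8.33% higher. The same 8 genes fell in all 3 lines, as did 8.79% of all genes: AT1G23720, AT2G43150, AT3G28550, AT3G54580, HRGP1, AT4G08400, AT4G08410 and AT5G06630. These are also the 8 extensins that were dim in none of the groups. Signal that near-identical extensin genes may share on the probes cannot be told apart, so the 8 are not independent measurements. Falls of at least 2-fold numbered 8 in Dof1.1 roots (11.5% of all genes), 8 in Dof2.2 roots (9.66%) and 5 in PEAR2 roots (6.85%). The median change of the 10 genes was -1.41, -1.26 and -1.10 in roots of Dof1.1, Dof2.2 and PEAR2, beside 0.11, 0.11 and 0.03 over all genes. The members, and the related lists below, were chosen with earlier results of these data known. Their excess over the shares of all genes is therefore no separate evidence. In bulk root RNA, fewer cells that express a gene and less transcript per cell cannot be told apart.

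**Figure D1:**
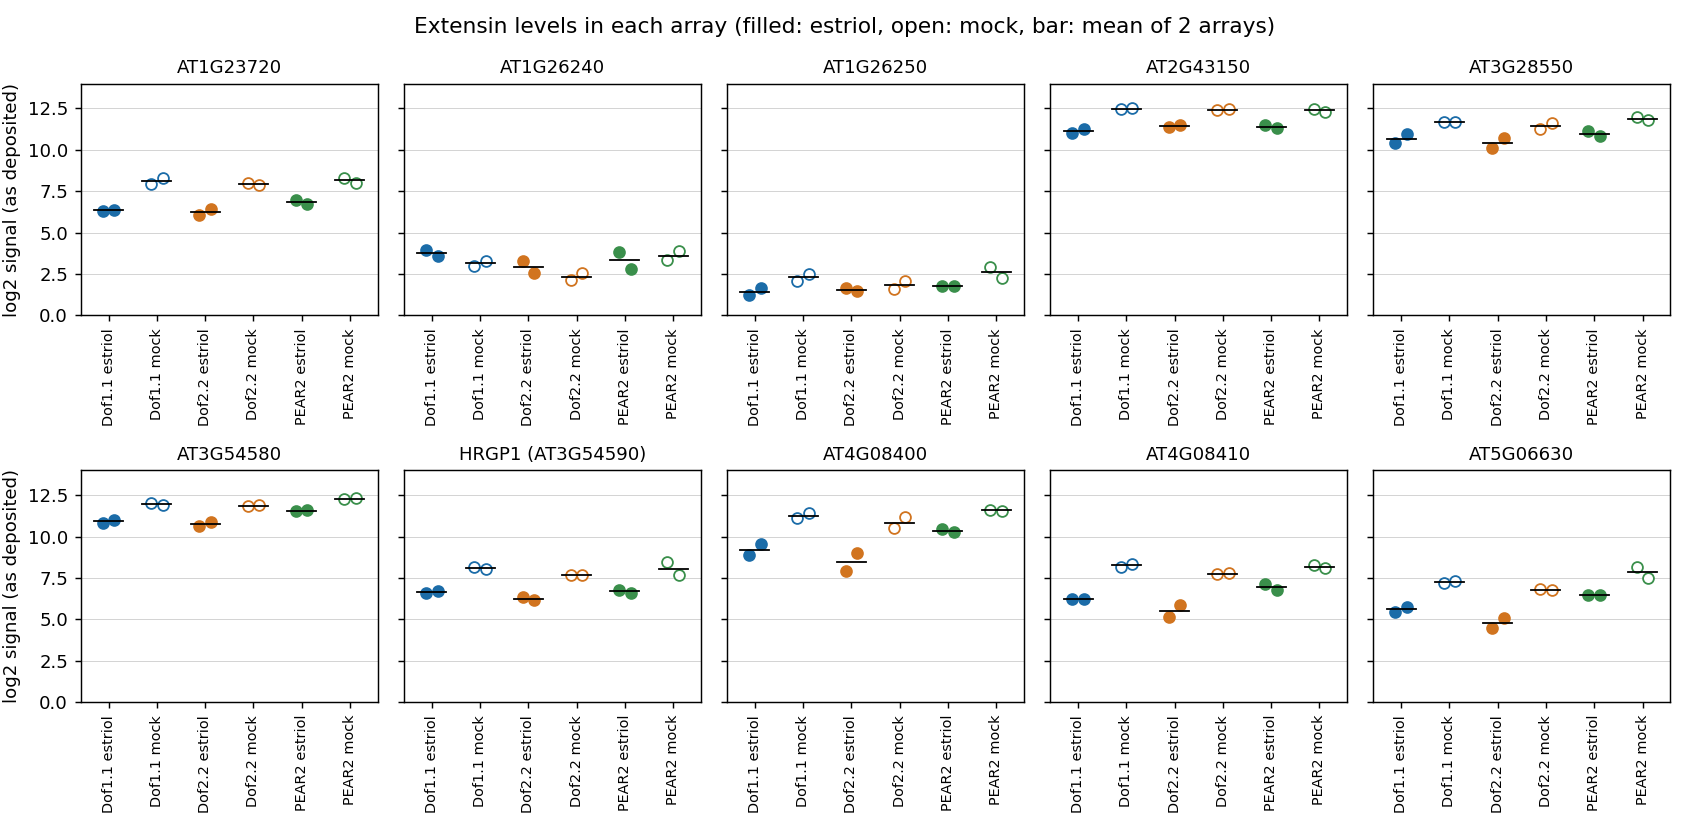
Log2 signal (y axis, as deposited) of each of the 10 extensins in every array, with a panel per gene and the 6 groups along the x axis. Filled points are estriol arrays, open points mock arrays, and bars the mean of 2 arrays. In the panel of AT4G08410 the estriol means are 6.22, 5.51 and 6.97 and the mock means 8.27, 7.76 and 8.19 in roots of Dof1.1, Dof2.2 and PEAR2.

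AT4G08410 had the smallest adjusted p among the extensins in the Dof2.2 induction. Its levels were 5.17 and 5.85 in estriol arrays of Dof2.2 roots, against 7.73 and 7.79 in mock arrays. In Dof1.1 roots it stood at 6.22 in both estriol arrays, against 8.18 and 8.35 in mock arrays, and in PEAR2 roots at 7.16 and 6.78 with estriol, against 8.28 and 8.09. All estriol arrays thus lay below all mock arrays of their line, with the widest gaps in Dof1.1 and Dof2.2 roots. The changes were -2.05 ± 0.22 in Dof1.1 roots (4.13-fold lower, adjusted p = 5.02e-05), -2.25 ± 0.22 in Dof2.2 roots (4.76-fold lower, adjusted p = 3.15e-05) and -1.22 ± 0.22 in PEAR2 roots (2.32-fold lower, adjusted p = 0.00321).

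AT4G08400 lies near AT4G08410 in the gene order of the TAIR10.1 annotation, 2 protein-coding places away. Its estriol arrays read 8.88 and 9.56 in Dof1.1 roots, against 11.1 and 11.45 with mock, and 7.9 and 9.04 in Dof2.2 roots, against 10.51 and 11.19. In PEAR2 roots they read 10.47 and 10.25, against 11.61 and 11.55. The groups did not overlap in any line, although the estriol arrays of Dof2.2 roots were 1.14 apart, the widest gap between replicates among the 8 genes. AT4G08400 changed by -2.06 ± 0.37 (adjusted p = 0.00158), -2.38 ± 0.37 (0.000736 adjusted p) and -1.22 ± 0.37 (adjusted p = 0.0437) in roots of Dof1.1, Dof2.2 and PEAR2. The call in PEAR2 roots was lost without estriol array 1 (adjusted p = 0.114), estriol array 2 (0.182), mock array 1 (0.165) or mock array 2 (0.146) of that line, and without either mock array of Dof1.1 roots (0.0581).

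AT1G23720 had the smallest adjusted p of the 10 genes in the Dof1.1 and PEAR2 inductions. It read 6.33 and 6.38 in estriol arrays of Dof1.1 roots, against 7.96 and 8.29 in mock arrays. In Dof2.2 roots the estriol arrays gave 6.05 and 6.43, against 8.01 and 7.87, and in PEAR2 roots 6.95 and 6.74, against 8.31 and 7.99. In each line both estriol arrays were below both mock arrays. Its changes were -1.77, -1.70 and -1.31 (SE 0.19) in roots of Dof1.1, Dof2.2 and PEAR2, with adjusted p = 4.72e-05, 7.59e-05 and 0.000785.

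AT2G43150 was the other extensin with a small adjusted p in the PEAR2 induction. It read 11.01 and 11.23 with estriol in Dof1.1 roots, against 12.44 and 12.53 with mock. It read 11.38 and 11.49 in Dof2.2 roots, against 12.42 and 12.45, and 11.51 and 11.31 in PEAR2 roots, against 12.48 and 12.29. The replicates were close, and every estriol array lay below the mock arrays of its line. AT2G43150 changed by -1.37, -1 and -0.98 (SE 0.15) in roots of Dof1.1, Dof2.2 and PEAR2, with adjusted p = 5.11e-05, 0.000533 and 0.00103, which are falls of 2.58-fold, 2-fold and 1.97-fold.

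The adjacent genes AT3G54580 and HRGP1, which encodes a hydroxyproline-rich glycoprotein, also fell in all lines. AT3G54580 averaged 10.92 ± 0.09, 10.76 ± 0.16 and 11.57 ± 0.02 with estriol in roots of Dof1.1, Dof2.2 and PEAR2, against 11.95 ± 0.08, 11.86 ± 0.03 and 12.30 ± 0.02 with mock (SD, n = 2). Its falls were the smallest or among the smallest of the 8 genes, at -1.04, -1.11 and -0.73 (SE 0.14; adjusted p = 0.000211, 0.000163 and 0.00394). HRGP1 averaged 6.66 ± 0.08, 6.26 ± 0.10 and 6.70 ± 0.11 with estriol, against 8.12 ± 0.09, 7.67 ± 0.01 and 8.06 ± 0.57 with mock. The larger SD in mock PEAR2 roots came from arrays at 8.46 and 7.66. The changes of HRGP1 were similar in size in the 3 lines, at -1.46, -1.41 and -1.36 (SE 0.22; adjusted p = 0.00058, 0.000885 and 0.00182).

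AT5G06630, whose neighbour EXT10 was not analysed here, read 5.46 and 5.74 with estriol in Dof1.1 roots, against 7.2 and 7.31 with mock. In Dof2.2 roots it read 4.49 and 5.06, against 6.82 and 6.77, and in PEAR2 roots 6.45 and 6.48, against 8.16 and 7.53. No estriol array reached the level of a mock array of its line. Its changes in roots of Dof1.1, Dof2.2 and PEAR2 were -1.66, -2.02 and -1.38 (SE 0.24; adjusted p = 0.000348, 0.000107 and 0.00224). AT3G28550 had the largest adjusted p of the 8 genes in Dof1.1 and Dof2.2 roots, and its changes were -1, -1.06 and -0.91 (SE 0.25; adjusted p = 0.0102, 0.00886 and 0.0276). Its group means were 10.68 ± 0.38, 10.41 ± 0.44 and 10.98 ± 0.19 with estriol, against 11.68 ± 0.01, 11.47 ± 0.25 and 11.89 ± 0.15 with mock (SD, n = 2). The AT3G28550 call was lost in Dof1.1 roots without estriol array 1 (adjusted p = 0.0847), and in Dof2.2 roots without estriol array 1 (0.07), without mock array 2 (0.0672) or on the arrays of that line alone (0.0575). In PEAR2 roots it was lost without estriol array 1 (0.0631), estriol array 2 (0.158), mock array 1 (0.156) or mock array 2 (0.0769).

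**Figure D2:**
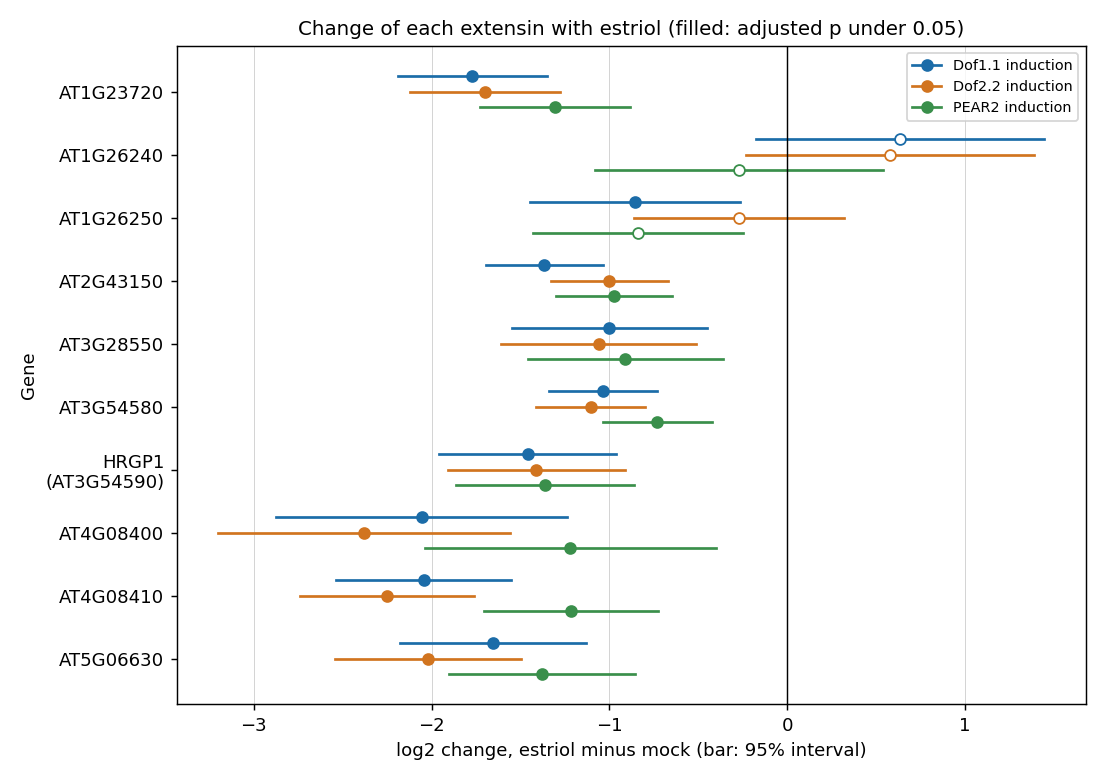
Change of each extensin with estriol (x axis, log2 of estriol over mock, with 95% intervals) after induction of Dof1.1, Dof2.2 and PEAR2, a row per gene. Filled points have an adjusted p under 0.05. The 8 genes with filled points in every line lie between -2.38 and -0.73, and AT1G26240 and AT1G26250 hold the 5 open points.

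The adjacent genes AT1G26240 and AT1G26250 were not called in every line, and both were near the bottom of the signal range. AT1G26250 was dim in all 6 groups. It read 1.22 and 1.67 with estriol in Dof1.1 roots, against 2.08 and 2.52 with mock, which the test called at -0.86 ± 0.27 (adjusted p = 0.0309). This call was lost without mock array 2 (adjusted p = 0.178) or estriol array 1 (0.182) of the line, and with array weights (0.0685). In Dof2.2 roots AT1G26250 read 1.65 and 1.48, against 1.61 and 2.06 (-0.27 ± 0.27, adjusted p = 0.51). In PEAR2 roots it read 1.76 in both estriol arrays, against 2.95 and 2.25 with mock. That change, -0.84 ± 0.27, missed the threshold at adjusted p = 0.053 and passed it under 7 of 20 alternatives, among them leaving out mock array 2 of PEAR2 roots (0.025) or either mock array of Dof2.2 roots (0.0499), and a replicate block by pair (0.0471).

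AT1G26240 passed in no line. It read 3.98 and 3.61 with estriol in Dof1.1 roots, against 3.01 and 3.31 with mock, 3.31 and 2.55 in Dof2.2 roots, against 2.15 and 2.55, and 3.85 and 2.83 in PEAR2 roots, against 3.32 and 3.9. Of these groups, that of estriol in Dof1.1 roots was not dim. The changes were 0.64 (95% interval -0.18 to 1.45), 0.58 (-0.23 to 1.39) and -0.27 (-1.08 to 0.54), with adjusted p = 0.216, 0.28 and 0.701. Without estriol array 2 or mock array 2 of PEAR2 roots, the change there was 0.24 or 0.02. The intervals leave room for a rise of 2-fold or more in Dof1.1 and Dof2.2 roots, and for a fall in PEAR2 roots.

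Both estriol arrays lay below both mock arrays for 9 of the 10 genes in Dof1.1 roots, where this held for 25.7% of all genes. It held for 8 in Dof2.2 roots (23.6% of all genes) and for 9 in PEAR2 roots (28.2%). For AT1G26240 in Dof1.1 roots, both estriol arrays lay above both mock arrays instead. Ranked by signed change among all genes tested, the 8 genes that fell throughout lay between the lowest 4.9% and 11.8% in Dof1.1 roots. They lay between 3.6% and 9.98% in Dof2.2 roots and between 4.53% and 10.4% in PEAR2 roots. Genes with deeper falls than any extensin were thus present in each line. The 8 genes were picked by these same changes, so their low ranks are no separate evidence. Of the other extensins, AT1G26240 ranked at 86.0%, 85.7% and 24.0% in roots of Dof1.1, Dof2.2 and PEAR2. AT1G26250 ranked at 13.3%, 22.8% and 9.02%.

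Whether the size of the fall differs between lines was asked by testing the difference of the changes. Each Dof gene came with its own line, so an effect of the gene cannot be told apart from that of the line. None of the 10 genes passed in any of the 3 differences by limma, where 1.53% of all genes passed for Dof1.1 minus Dof2.2 (0.949% higher, 0.586% lower), 2.91% for Dof1.1 minus PEAR2 (1.24% higher, 1.67% lower) and 1.66% for Dof2.2 minus PEAR2 (0.302% higher, 1.36% lower). At an unadjusted p under 0.05 there were 0, 1 and 2 extensins, beside 11%, 15.5% and 11.6% of all genes. AT4G08410 came closest, with a fall that was deeper than in PEAR2 roots by -0.83 in Dof1.1 roots (95% interval -1.52 to -0.14, adjusted p = 0.223) and by -1.04 in Dof2.2 roots (-1.73 to -0.34, adjusted p = 0.179). Without estriol array 2 of Dof2.2 roots, the difference for Dof2.2 minus PEAR2 was -1.38 and passed (adjusted p = 0.0464). AT4G08400 had a difference of -1.16 for Dof2.2 minus PEAR2 (95% interval -2.32 to -0.0018, adjusted p = 0.431).

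All 8 genes that fell throughout had a negative difference for Dof1.1 minus PEAR2, from -0.84 to -0.09, where 43.8% of all genes had one. The same held for Dof2.2 minus PEAR2, from -1.16 to -0.03, beside 43.7% of all genes. Of all 10 extensins, 9 and 8 had a negative difference in these comparisons. AT1G26240 had differences of 0.905 and 0.85, and AT1G26250 of -0.015 and 0.57. These comparisons share the 4 arrays of PEAR2 roots, and no extensin's difference passed the test. The 8 genes were picked by their falls, and falls over all genes were shallower in PEAR2 roots too. The 10th percentile of the changes over all genes was -1.215, -1 and -0.7565 in roots of Dof1.1, Dof2.2 and PEAR2. The shares over all genes include genes that rose, so the 8 negative differences do not set the extensins apart from other falling genes. After the common quantile normalization the differences of AT2G43150 and HRGP1 (AT3G54590) for Dof2.2 minus PEAR2 were above 0, at 0.06 and 0.01. Without mock array 2 of PEAR2 roots, those of AT3G28550, HRGP1 and AT5G06630 for Dof1.1 minus PEAR2 were above 0, at 0.02, 0.30 and 0.04, and so were those of AT2G43150 and HRGP1 for Dof2.2 minus PEAR2, at 0.07 and 0.35. Leaving out other single arrays turned the sign of AT3G28550, AT2G43150 or HRGP1 too, at values up to 0.18. For Dof1.1 minus Dof2.2 the 8 differences lay on both sides of 0, from -0.37 to 0.37, with 3 of them below 0 beside 49% of all genes. The tightest of these was that of AT3G54580, at 0.07 with a 95% interval of -0.36 to 0.50, and the intervals of HRGP1 ran from -0.76 to 0.66. These widths do not show that the lines act alike.

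**Figure D3:**
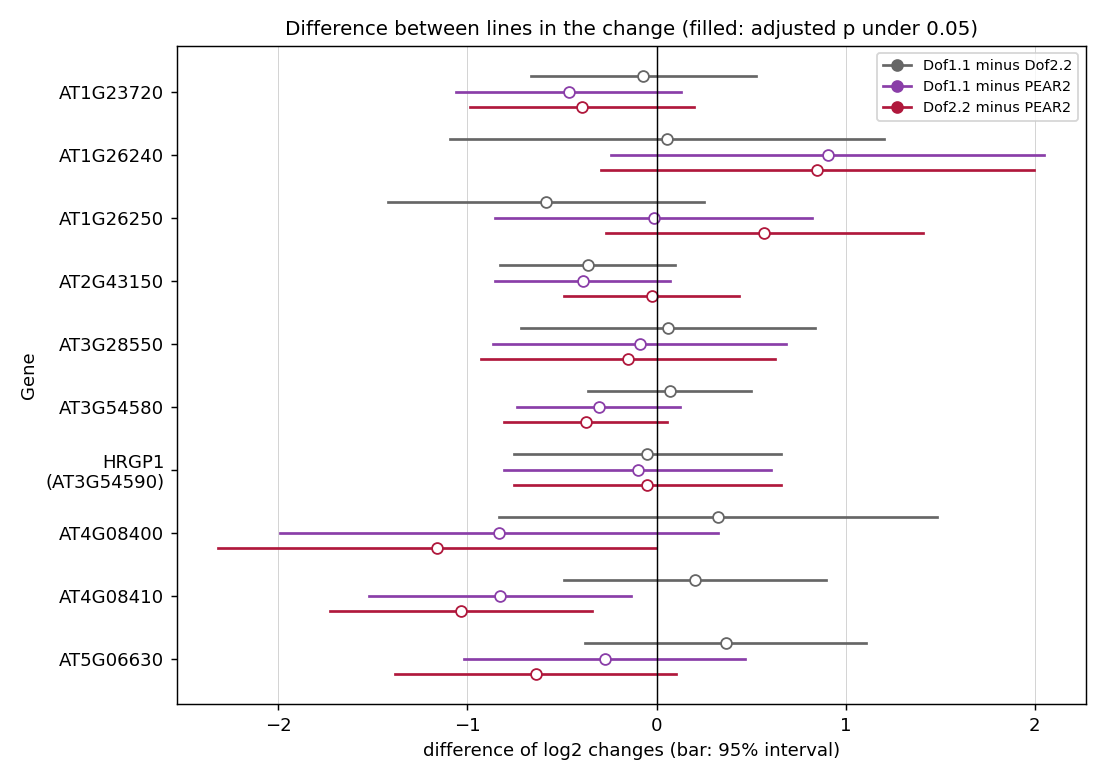
Difference between lines in the estriol change (x axis, log2, with 95% intervals) for each extensin. The points are open, as no difference had an adjusted p under 0.05, and AT4G08410 for Dof2.2 minus PEAR2 has its interval at -1.73 to -0.34.

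Levels could not be ordered between lines. AT4G08410 in mock roots had a deposited mean of 8.27 in Dof1.1 roots, 7.76 in Dof2.2 roots and 8.19 in PEAR2 roots. After a common quantile normalization of all arrays these means were 8.25, 8.22 and 7.76, which turns the order of Dof2.2 and PEAR2 roots round. AT3G54580 in mock roots had deposited means of 11.95, 11.86 and 12.30, and 11.97, 12.14 and 11.99 after the common normalization. The falls within each line kept their direction, since 9, 9 and 10 of the genes had a change below 0 both as deposited and after the common normalization in roots of Dof1.1, Dof2.2 and PEAR2.

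Enzymes that hydroxylate or glycosylate extensins formed a list of 12 loci, of which 6 were measured. The listed hydroxylases P4H2, P4H5 and P4H13 were not among them, so the values concern glycosylating enzymes alone. In the Dof1.1 induction 5 fell, 0 rose and 1 did not pass (median -1.36), beside 16.2% of all genes called lower and a median over all genes of 0.11. In the Dof2.2 induction all 6 fell (median -1.32), beside 13.6% and 0.11 over all genes. In the PEAR2 induction 4 fell and 2 did not pass (median -0.92), beside 10.4% and 0.03 over all genes. This list was chosen with earlier results of these data known, so the excess over all genes is no separate evidence. AT2G25260 had the largest fall of this list. It read 4.82 and 4.7 with estriol in Dof1.1 roots, against 8.52 and 9.04 with mock, 4.13 and 4.34 in Dof2.2 roots, against 8.81 and 8.52, and 7.01 and 7.46 in PEAR2 roots, against 9.02 and 9.43. Its changes were -4.02, -4.43 and -1.99 (SE 0.23; adjusted p = 8.6e-07, 5.86e-07 and 0.000206). AT3G57630 changed by -2.76, -2.30 and -1.57 (SE 0.19; adjusted p = 3.13e-06, 1.21e-05 and 0.000308), and AT3G01720 by -1.47, -1.69 and -1 (SE 0.19; adjusted p = 0.000187, 8.57e-05 and 0.00432). XEG113, an arabinosyltransferase of this list, changed by -1.25, -0.96 and -0.84 (SE 0.18; adjusted p = 0.000461, 0.00296 and 0.00967). The XEG113 call in PEAR2 roots was lost without mock array 1 (adjusted p = 0.0603), mock array 2 (0.0561) or estriol array 1 (0.0924) of that line. Of the remaining members, AT5G25265 fell in Dof2.2 roots at -0.68 (adjusted p = 0.0062). Its change in Dof1.1 roots, -0.40, missed the threshold (adjusted p = 0.0625) and passed it under 6 alternatives (0.0171 to 0.0475), the replicate block by pair (0.0279) and leaving out estriol array 1 of that line (0.0456) among them. The difference between these lines did not pass (adjusted p = 0.778). AT5G13500 fell in Dof1.1 and Dof2.2 roots, at -0.64 and -0.56 (adjusted p = 0.0141 and 0.0319), and each of these calls was lost on the arrays of its line alone (0.0691 and 0.0909). The first was also lost without estriol array 2 (0.109) or mock array 1 (0.0909) of its line, and the second without estriol array 2 (0.173), mock array 1 (0.149) or mock array 2 (0.0569) of its line or either mock array of PEAR2 roots (0.0509). In PEAR2 roots AT5G13500 stood at -0.41 (adjusted p = 0.135) and passed with array weights (0.0446) and with the block by pair (0.0403). No difference between lines passed for AT5G13500 (adjusted p = 0.736 to 0.976).

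For AT2G25260 the fall differed between lines by the test of the difference. The difference was -2.03 ± 0.33 for Dof1.1 minus PEAR2 (adjusted p = 0.0114) and -2.44 ± 0.33 for Dof2.2 minus PEAR2 (adjusted p = 0.00567). The difference for Dof1.1 minus PEAR2 was lost without mock array 1 of PEAR2 roots (adjusted p = 0.0556). AT3G57630 had a difference of -1.20 ± 0.28 for Dof1.1 minus PEAR2, which missed the threshold (adjusted p = 0.0509). It passed under 8 alternatives (0.0189 to 0.05), among them array weights (0.0326) and leaving out mock array 2 of Dof1.1 roots (0.0214) or either mock array of Dof2.2 roots (0.0475). Whether the difference of AT2G25260 is larger than that of an extensin was not tested.

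Other extensin-type and proline-rich genes formed a list of 8 loci with 4 measured, all listed as LRX proteins, in which a leucine-rich repeat domain is joined to an extensin domain. They did not move together. AT3G24480 rose in every line, by 1.26, 1.23 and 1.12 (SE 0.14; adjusted p = 7.87e-05, 0.000109 and 0.000384). It read 11.75 and 11.62 with estriol in Dof1.1 roots, against 10.47 and 10.39 with mock. AT3G22800 fell in every line, at -2.84, -3.53 and -2.28 (SE 0.36; adjusted p = 0.000175, 4.73e-05 and 0.00149). It was dim with estriol in Dof2.2 roots (mean 2.55), so the size of the change there is not an exact one. AT4G18670 fell in Dof1.1 roots at -0.83 ± 0.21 (adjusted p = 0.0115). That call was lost without mock array 2 (0.087) or estriol array 1 (0.0821). AT4G18670 stood at -0.48 and -0.33 in Dof2.2 and PEAR2 roots. Its difference did not pass for Dof1.1 minus Dof2.2 (adjusted p = 0.831) or Dof1.1 minus PEAR2 (0.489). AT5G25550 passed in no line, at 0.43, 0.04 and -0.16 (adjusted p = 0.189, 0.927 and 0.726), and was dim in 5 of 6 groups. In Dof1.1 roots it passed without estriol array 2 (0.78, adjusted p = 0.0283) and with a replicate block by pair (0.43, adjusted p = 0.0464).

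A further list of 38 root hair genes had 5 measured. All 5 were called lower after induction of Dof1.1 and of Dof2.2, and 3 fell in the PEAR2 induction, beside 16.2%, 13.6% and 10.4% of all genes called lower. The medians were -2.32, -3.06 and -1.77, against 0.11, 0.11 and 0.03 over all genes. As this list too was chosen with earlier results of these data known, the excess over all genes is no separate evidence. The xyloglucan-modifying enzyme gene XTH26 changed by -2.32, -3.06 and -1.77 (SE 0.29; adjusted p = 0.000134, 2.36e-05 and 0.00165). AT5G43175 fell in Dof1.1 and Dof2.2 roots at -2.12 and -1.77 (SE 0.26; adjusted p = 0.000124 and 0.000523). It changed by -0.76 in PEAR2 roots (adjusted p = 0.0733, and 0.0131 without either mock array of Dof2.2 roots, 0.0264 on the arrays of its line alone and 0.0186 with array weights), and was dim with estriol in every line. The differences of AT5G43175 were -1.365 for Dof1.1 minus PEAR2 and -1.015 for Dof2.2 minus PEAR2. Neither passed (adjusted p = 0.0864 and 0.292), though the first passed on the arrays of those lines alone (0.0242). SCN1, a regulator of hair initiation sites, fell at -0.46 and -0.59 in Dof1.1 and Dof2.2 roots (SE 0.16, adjusted p = 0.0465 and 0.0189). Both calls of SCN1 were lost on the arrays of the line alone (0.168 and 0.052). The call of SCN1 in Dof1.1 roots was lost without each single array (0.05 to 0.287) except estriol array 2 of that line, and the call in Dof2.2 roots without any of the 4 arrays of its line (0.0658 to 0.0745). With array weights the call of SCN1 in Dof1.1 roots was lost too (adjusted p = 0.0669). In PEAR2 roots SCN1 stood at -0.39 (adjusted p = 0.131) and passed with array weights (0.0433) and with a replicate block by pair (0.0479). No difference between lines passed for SCN1 (adjusted p = 0.864 to 0.966). The root hair expansins EXPA7 and EXPA18, which loosen the wall, changed by -3.49 and -3.98 in Dof1.1 roots, -4.39 and -5.17 in Dof2.2 roots and -1.94 and -1.88 in PEAR2 roots. Each expansin change was larger in size than that of any extensin in the same line, with no test of that difference, and its adjusted p was at most 5.71e-05. Of 11 genes of epidermal cell fate, TRY was measured, a small MYB protein of hair patterning. TRY changed by -1.58 ± 0.37 in Dof1.1 roots (adjusted p = 0.00753), with calls lost without mock array 2 (0.0649) or estriol array 1 (0.0653), and by -0.98 and -0.87 in the other lines (adjusted p = 0.0741 and 0.145). The change of TRY in Dof2.2 roots passed without any single array of Dof1.1 roots (adjusted p = 0.0438 to 0.0462), on the arrays of its line alone (0.0467) and with a replicate block by pair (0.00512). In PEAR2 roots it passed with array weights (adjusted p = 0.0448), on the arrays of its line alone (0.0289) and with the block by pair (0.0118). The difference of TRY did not pass for Dof1.1 minus Dof2.2 (adjusted p = 0.837), Dof1.1 minus PEAR2 (0.605) or Dof2.2 minus PEAR2 (0.971).

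**Figure D4:**
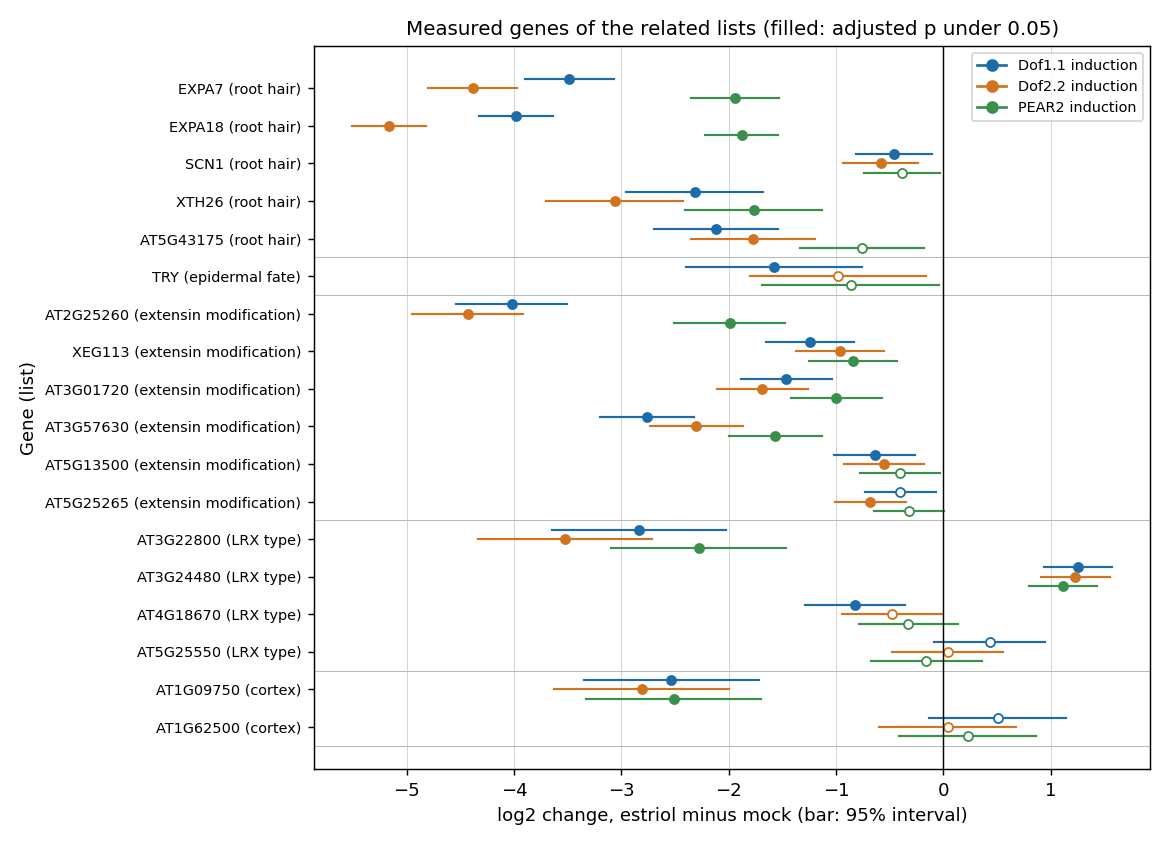
Change with estriol (x axis, log2 with 95% intervals) of the 18 measured genes of the related lists, a row per gene with its list in brackets, after induction of Dof1.1, Dof2.2 and PEAR2. Filled points have an adjusted p under 0.05. AT3G24480 lies at 1.12 to 1.26, right of 0, while AT2G25260, EXPA7 and EXPA18 lie farthest left among the points for Dof1.1 and for Dof2.2.

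Markers of other root cell types could be followed for the cortex alone, with 2 of 2 measured, and 0 of 4 for root cap, 0 of 8 for endodermis, 0 of 5 for xylem and 0 of 4 for phloem. The cortex marker AT1G09750 fell in each line. It stood at 3.30, 2.94 and 3.73 with estriol in roots of Dof1.1, Dof2.2 and PEAR2, all dim, against 5.83, 5.75 and 6.24 with mock. It changed by -2.54, -2.81 and -2.51 (SE 0.37; adjusted p = 0.000383, 0.000231 and 0.000831). The cortex marker AT1G62500 was dim in all 6 groups and passed in no line. Its changes were 0.505, 0.04 and 0.225 in roots of Dof1.1, Dof2.2 and PEAR2, so the 2 markers did not move together. The part of cell composition in the extensin falls was not tested.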

How the data were processed

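RNA of entire roots was labelled with biotin, with one sample per array, per the labels' protocols. The log2 signal values are as the authors deposited them, made by RMA per the submitters' processing notes. No source used here gives the software, its version or how probes were summarised. Array quantiles lay closer within a line than between lines. The probe annotation covered 17481 of 28583 entries, 16722 with a single gene, matched to TAIR10.1 by Entrez identifier (16574) or name (148), which left 16548 genes after the entry of highest mean was taken. Near-identical extensin genes may share probe signal, which the table cannot resolve. No sequences were used here.

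Groups follow the sample titles. A model of 6 group means over 12 arrays was fitted with limma 3.58.1 in R 4.3.3 (6 residual and 3.94 prior degrees of freedom), tested on simulated data. The number of arrays limits the precision. Full values were given for the 2 extensins of smallest adjusted p per induction, and for others after their values were seen. The members and lists were chosen with earlier results of these data known. Alternatives covered normalization, a filter on dim genes, moderation, array weights, fewer arrays, blocks, all entries and a 2-fold minimum.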

Additional observations from a re-analysis of the deposited data

Results flagged for a closer look

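No extensin passed the test of the difference between lines. Of all genes, 1.53% passed for Dof1.1 minus Dof2.2, 2.91% for Dof1.1 minus PEAR2 and 1.66% for Dof2.2 minus PEAR2. With shares this small, the lack of a passing extensin does not set the extensins apart from other genes. Among the related genes, the fall of EXPA7 (AT1G12560) differed by -1.54 for Dof1.1 minus PEAR2 (adjusted p = 0.0141) and by -2.44 for Dof2.2 minus PEAR2 (0.00196). The fall of EXPA18 (AT1G62980) differed by -2.10 for Dof1.1 minus PEAR2 (adjusted p = 0.00125) and by -3.29 for Dof2.2 minus PEAR2 (9.58e-05). It also differed by 1.19 for Dof1.1 minus Dof2.2 (adjusted p = 0.026). The fall of AT2G25260 differed by -2.03 for Dof1.1 minus PEAR2 and by -2.44 for Dof2.2 minus PEAR2. The limma test of the difference of changes between lines picked these out. The EXPA7 difference for Dof1.1 minus PEAR2 was lost without estriol array 2 (adjusted p = 0.0621) or either mock array (0.0597 without the first, 0.0636 without the second) of the PEAR2 line. The EXPA18 difference for Dof1.1 minus Dof2.2 was lost after quantile normalization over all arrays (0.97, adjusted p = 0.0642), on the arrays of those lines alone (0.107) and with a replicate block by pair (0.0757). It was also lost without each single array (0.0516 to 0.0929), except mock array 1 of Dof1.1 roots and estriol array 1 of Dof2.2 roots. The AT2G25260 difference for Dof1.1 minus PEAR2 was lost without mock array 1 of PEAR2 roots (0.0556).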

How the results depend on the processing

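Over 624 values of the 30 extensin changes under the alternatives, 600 kept their side of the threshold, 17 lost the call and 7 gained it. No called change turned sign, and 2 values of an uncalled one did (AT1G26240 in PEAR2 roots). Of 624 values of the differences between lines, 38 turned sign, over 14 differences, none of them called, and 1 gained the call. Extensins called numbered 7 to 9 in the Dof1.1 induction, 7 to 8 in the Dof2.2 induction and 6 to 9 in the PEAR2 induction without single arrays, and 8 to 9, 7 to 8 and 8 to 9 under the other settings. With a 2-fold minimum, 5 were called in the PEAR2 induction. The count of differences for Dof2.2 minus PEAR2 was 0 to 1 without single arrays. A lone array left in a group was assumed to vary like the others. Over all genes, the PEAR2 count of 3105 became 1915, 2043, 1923 and 1859 without estriol arrays 1 and 2 and mock arrays 1 and 2 of that line, and the Dof2.2 count of 4704 became 3095 on that line's arrays alone. With all entries, 10324, 8829 and 5621 were called, against 5623, 4704 and 3105 over genes. Genes called for the differences numbered 254, 482 and 275 for Dof1.1 minus Dof2.2, Dof1.1 minus PEAR2 and Dof2.2 minus PEAR2, and 148 to 277, 180 to 640 and 111 to 355 without single arrays. They were 154, 677 and 237 on the arrays of the lines compared and 397, 854 and 490 over all entries.

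Same-numbered arrays deviated together at 0.32, 0.17 and 0.13 within lines (Dof1.1, Dof2.2, then PEAR2) and at -0.08 to 0.11 between lines. The labels do not say that a number marks a shared batch, and each comparison holds 2 pairs, so the block is an alternative here. With a replicate block by pair within a line, 9, 8 and 9 extensins were called for Dof1.1, Dof2.2 and PEAR2 roots, and with a block by number 9, 8 and 8. The pair block changed no other call of an extensin than that of AT1G26250 in PEAR2 roots (adjusted p = 0.0471). Levels under the dim range limit what can be said of AT1G26240 and AT1G26250, which were not tested with the genes of lowest mean left out.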

Other observations

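Replicate arrays of a group differed for the 8 extensins that fell throughout. In estriol roots of the Dof2.2 line, 7 of 8 were lower in array 1 than in array 2, by a median of -0.48, where 45.5% of all genes were lower and their median gap was 0.03. In estriol roots of the Dof1.1 line 7 were lower in array 1 and 1 was tied, with a median gap of -0.18 (51.8% of all genes, median gap -0.02). In estriol roots of the PEAR2 line 6 of 8 were higher in array 1, with a median gap of 0.21, and in mock roots of that line 7 of 8, with 0.20, where 50.1% and 53.2% of all genes were higher. Mock roots of the Dof1.1 line had 6 of 8 lower in array 1, with a median gap of -0.10 (52.0% of all genes, median gap -0.03). Mock roots of the Dof2.2 line had 5 of 8, with a median gap of -0.04 (43.2% of all genes, median gap 0.04). These are values of single arrays, with no test.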
